A study of Mus musculus with 15 samples.

Results

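The 33 genes described here carry out, control or undo the synthesis of cholesterol and fatty acids. They were taken from a list of gene names that was drawn up with earlier results of these data known, although the rule itself uses no measured value, and were split by role into 16 genes of sterol synthesis, 4 of its regulators, 10 of fatty acid synthesis and 3 of sterol removal. All 33 were found among the 24831 gene names of the deposited table, as 66 of its 49404 transcripts. All 33 also passed a filter on low values, a level of 1 RPKM or more when averaged across the 5 groups, as did 17481 names in total. RPKM scales reads by transcript length and by the library's mapped reads, so levels can be compared between genes. Each sample was total RNA of hypothalamus taken at postnatal day 15 from the outbred CD-1 strain, and the labels give all groups this same age and strain, with no sex and no treatment. By its title the series asks whether thyroid hormone acts across generations, as read in F2 animals. Its 15 samples fall into the groups PGM, PGF, HM, HF and Control, with 3 biological replicates each. What the letters of the group names stand for is not spelled out in the labels.

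The table gives 1 value per transcript and group, the authors' mean over samples, and a gene's level here is the median over its transcripts. No value per sample was used, so no SD, p-value or replicate check can be given, the depth is unknown, and no difference below is shown to exceed the spread between animals. Differences were taken between groups in log2(mean RPKM + 0.5), and a gene was called when its difference reached 1.2-fold, 0.263 on this scale. The 4 comparisons with Control share the same Control value, so they do not support each other. Taken over every kept gene, PGM had a median difference of 0.005 from Control, PGF of -0.03, HM of -0.03 and HF of 0.02. The groups also differed in sex-linked genes, with Ddx3y of the Y chromosome at 30.4 RPKM in PGM and 32.0 in PGF, 16.8 in HM and 15.9 in HF, against 2.52 in Control. Xist of the X chromosome followed the opposite order. It was at 14.2 RPKM in PGM and 11.6 in PGF, 26.4 in HM and 35.4 in HF, against 44.0 in Control. The sex make-up of the groups is not labelled and cannot be told apart from group, and its part in the differences was not tested. Markers of the hypothalamus were present in every group. Their summed level over 11 genes was 1503 RPKM in PGM and 1369 in PGF, 1844 in HM and 1819 in HF, against 2029.8 in Control. Of the 11, 10 were lower than Control in PGM and 9 in each of PGF, HM and HF.

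Brain cholesterol is made inside the brain, since plasma lipoproteins do not cross the blood-brain barrier, and oligodendrocytes use much of it while myelin forms after birth. Acetyl-CoA passes through mevalonate to squalene and lanosterol, and then through several steps to cholesterol. The transcription factor SREBP-2 raises transcription of this pathway when membrane sterol is low, and SREBP-1 acts more on fatty acid synthesis. SCAP escorts both to their activation, and INSIG proteins hold SCAP back when sterol is plentiful. Surplus brain cholesterol leaves as 24-hydroxycholesterol, made in neurons by CYP46A1, or on lipoproteins that carry apolipoprotein E.

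The genes were mostly well expressed. The median member stood at percentile 84.2 of the kept genes by mean level, and the lowest at percentile 37.4. Apoe was the highest, at 3324 RPKM in PGM and 3367 in PGF, 3199 in HM and 3456 in HF, against 3548 in Control. Hsd17b7 was the lowest by mean level. It was at 13.7 RPKM in PGM and 13.7 in PGF, 10.8 in HM and 9.91 in HF, against 9.83 in Control. In PGM and PGF Tm7sf2 was lower, at 12.9 and 12.4. Within a gene the groups lay close together. The ratio of the highest to the lowest group had a median of 1.17 over the members, from 1.03 for Elovl5 to 1.64 for Elovl1, against a median of 1.18 over all kept genes. Of the 33 members, 12 were called in at least 1 group against Control, where 34.7% of all kept genes were, so calls as such were about as common here as elsewhere.

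**Figure D1:**
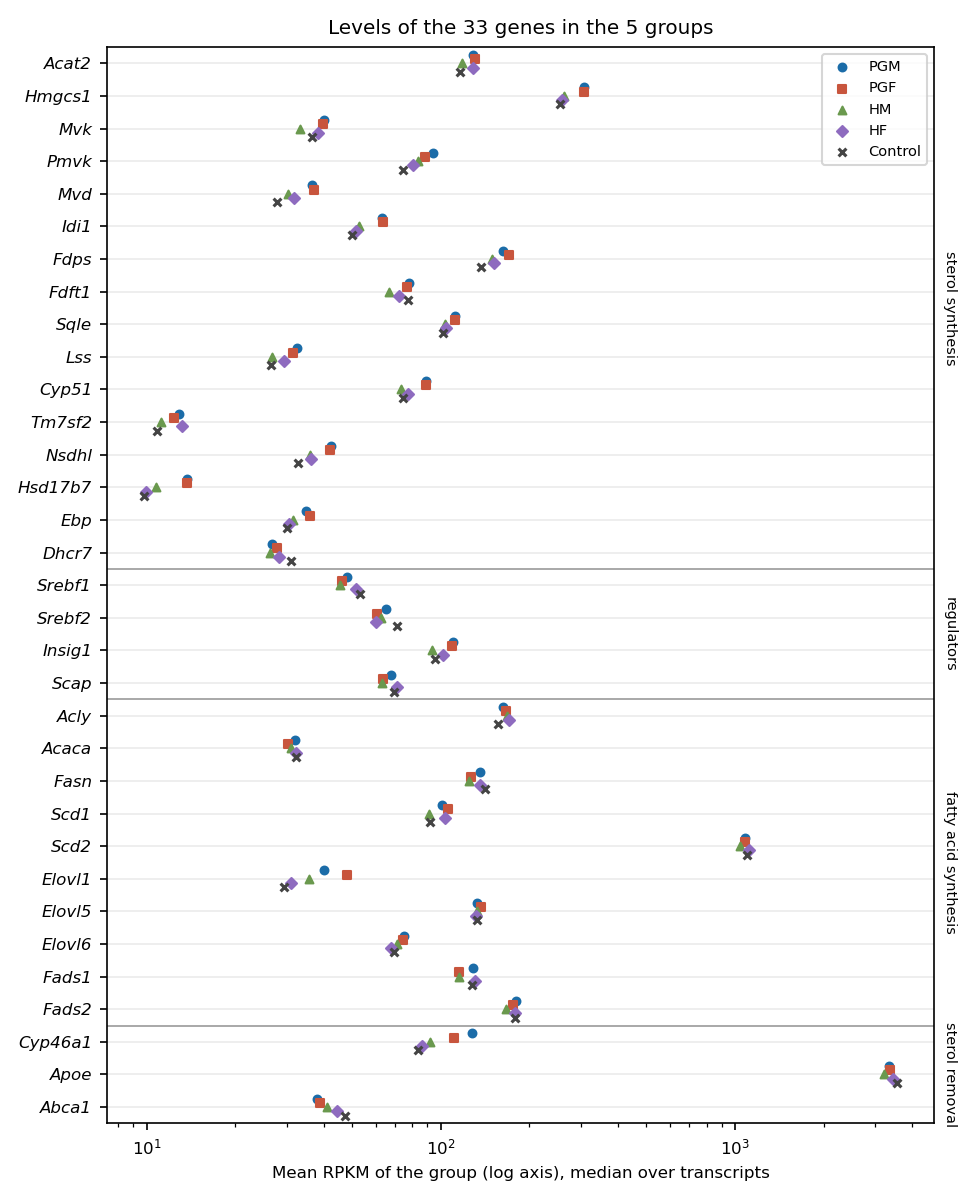
Mean RPKM of each of the 33 genes (rows, grouped by role) in the 5 groups, on a log axis, with 1 point per group and small vertical offsets so that points stay visible. Levels run from about 10 RPKM for Hsd17b7 to 3548 for Apoe in Control, and for most genes the 5 groups nearly coincide, with Elovl1 and Cyp46a1 the most spread.

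Sterol synthesis genes stood higher in PGM and PGF than in the other groups. Against Control, 15 of the 16 were higher in PGM and 14 of 16 in PGF, with median differences of 0.25 in each. Over all kept genes 50.9% were higher in PGM and 44.2% in PGF. Most sterol synthesis genes were also above Control in HM and HF, so this direction was not particular to PGM and PGF. They numbered 12 of 16 in HM (39.8% of all kept genes) and 14 of 16 in HF (58.6%), with medians of 0.04 and 0.06. Control was the lowest of the 5 groups for 12 of the 16, against 23.3% of all kept genes. In PGM 7 of the 16 were called higher (10.3% of all kept genes) and none lower (13.3%), and in PGF 6 were called higher (8.25%) and none lower (14.7%). The differences were small, between 1.2-fold and 1.4-fold for each called gene. Of the 16, 12 were higher in both PGM and PGF than in each of HM, HF and Control, a pattern found in 22.1% of all kept genes, and none was lower in both than in each of the 3, against 21.9%. PGM and PGF therefore stood together for these genes, with a summed level of 1275 RPKM in PGM and 1277 in PGF, 1115 in HM and 1139 in HF, against 1090.2 in Control.

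The first steps lead from acetyl-CoA to farnesyl diphosphate. Acat2 (chromosome 17), the thiolase that joins acetyl-CoA units, was at 129 RPKM in PGM and 131 in PGF, 118 in HM and 129 in HF, against 116 in Control. It has a close neighbouring copy, Acat3, and how reads shared by the pair were counted is not given, so its value is uncertain. Hmgcs1 (chromosome 13, 119690379 to 119708260 in GRCm38, the build also called mm10), which makes HMG-CoA, was at 307 RPKM in PGM and 306 in PGF, 262 in HM and 257 in HF, against 253 in Control. The PGM and PGF values lie apart from the other 3, which are close to each other, and the differences from Control were 0.28 in PGM and 0.27 in PGF. Both were just past the threshold. The PGM call ended with upper quartile scaling and with quantile normalization, and the PGF call ended with quantile normalization.

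Pmvk (chromosome 3, 89454541 to 89469013), phosphomevalonate kinase, was at 94.2 RPKM in PGM and 88.6 in PGF, 83.5 in HM and 80.4 in HF, against 74.5 in Control. Mvd (chromosome 8, 122433601 to 122443422), the decarboxylase that yields isopentenyl diphosphate, was at 36.6 RPKM in PGM and 36.9 in PGF, 30.1 in HM and 31.8 in HF, against 27.8 in Control. For both genes Control was the lowest group, and the Mvd differences were 0.39 in PGM and 0.40 in PGF. Idi1 (chromosome 13, 8885501 to 8892451), the isomerase of the next step, was at 62.9 RPKM in PGM and 63.8 in PGF, 52.7 in HM and 51.3 in HF, against 50.1 in Control. Fdps (chromosome 3, 89093588 to 89101959), farnesyl diphosphate synthase, was at 163 RPKM in PGM and 171 in PGF, 150 in HM and 151 in HF, against 137 in Control. Idi1 separated PGM and PGF from a tight trio, while Fdps was stepped, with HM and HF between. Mvk, mevalonate kinase, was not called in any group, with differences from -0.14 in HM to 0.13 in PGM.

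At the squalene steps the pattern was uneven. Fdft1, squalene synthase, differed from Control by 0.02 in PGM and -0.01 in PGF, -0.21 in HM and -0.10 in HF. Its exons overlap those of Ctsb on the opposite strand over 18.3% of their bases, and the use of strand in counting is not given. Sqle, squalene epoxidase, was above Control by 0.13 in both PGM and PGF. Lss (chromosome 10, 76531588 to 76557138), which closes the ring to lanosterol, was at 32.5 RPKM in PGM and 31.5 in PGF, 26.6 in HM and 29.4 in HF, against 26.5 in Control. Only Lss was called among these 3, in PGM, a call that ended with upper quartile scaling.

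After lanosterol, Hsd17b7 and Nsdhl, whose enzymes act in removing the methyl groups at carbon 4, were among the 3 genes of the 16 with the largest differences in PGM, with Mvd. Hsd17b7 (chromosome 1, 169949535 to 169969241) was above Control by 0.46 in both PGM and PGF, by 0.13 in HM and by 0.01 in HF, on the levels given above. Nsdhl (X chromosome, 72918557 to 72958514) was at 42.4 RPKM in PGM and 42.0 in PGF, 36.0 in HM and 36.1 in HF, against 32.6 in Control. The HM and HF values of Nsdhl lay between Control and the other groups, and those of Hsd17b7 lay nearer to Control. Tm7sf2 (chromosome 19, 6062821 to 6068373), a sterol C14 reductase, was at 12.9 RPKM in PGM and 12.4 in PGF, 11.2 in HM and 13.2 in HF, against 10.9 in Control. It was the only member called in HF, just past the threshold at 0.26, and its HF value was the highest of the 5. That call ended with a pseudocount of 1, both other scalings, the sum over transcripts and the transcript with the highest mean, with differences of 0.24 to 0.26. Cyp51, lanosterol demethylase, and Ebp, a sterol isomerase on the X chromosome, differed by at most 0.26, just under the threshold, and were not called. Dhcr7, which catalyses a last step to cholesterol, was lower than Control in all 4 groups, at 26.8 RPKM in PGM and 27.8 in PGF, 26.3 in HM and 28.3 in HF, against 30.8 in Control. Dhcr7 was the only gene of the 16 below Control in all 4 groups, and it was singled out after its values were seen. Fdft1 was below Control in PGF, HM and HF, and Mvk and Cyp51 were in HM.

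**Figure D2:**
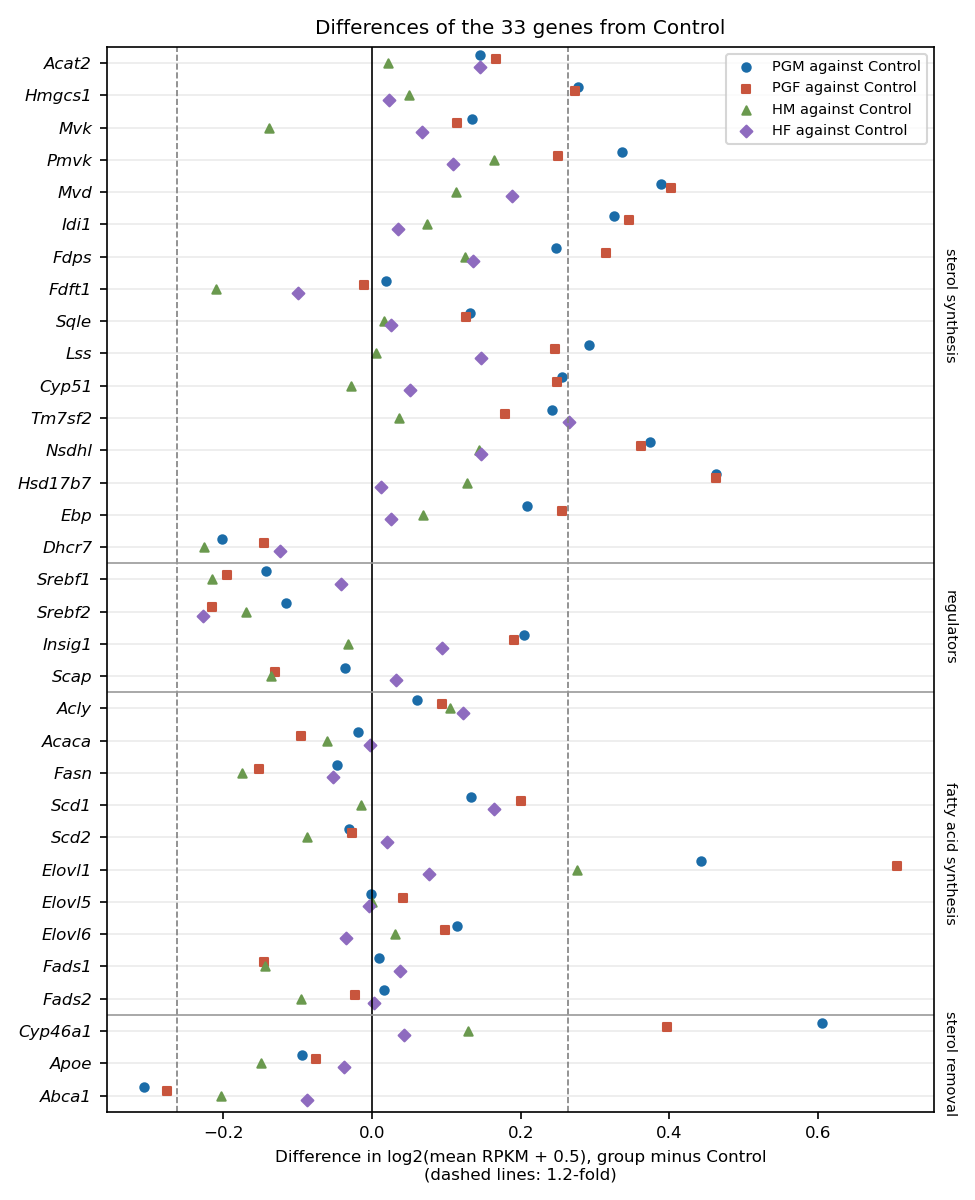
Difference from Control in log2(mean RPKM + 0.5) for each of the 33 genes (rows, grouped by role) in PGM, PGF, HM and HF, with 1 point per group, small vertical offsets and dashed lines at 1.2-fold. Points of PGM and PGF past the upper line gather among sterol synthesis genes, while Elovl1 and Cyp46a1 lie farthest right and Abca1 alone passes the lower line.

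The sequence before the start of these genes is shown as background, since SREBP-2 acts on genes of this pathway, usually beside the factors NF-Y and Sp1. Any part of SREBP-2 in the differences between groups was not tested. RefSeq promoters (GRCm38.p6, 250 bases before to 50 after each start) were matched for 27 of the 33 members. Fdps, Fdft1, Sqle, Scd1, Scd2 and Fads1 were not matched. Both strands were searched for TCACNCCA, a core of the sterol regulatory element, for CCAAT, the NF-Y box, and for GGGCGG, the Sp1 box. Matches can overlap, since TCACNCCA can end in the first letters of CCAAT and ATTGG can run into GGGCGG. A gene with several starts was counted if any of its windows held the motif. CCAAT was in 12 of 13 sterol synthesis genes, 3 of 4 regulators, 4 of 7 fatty acid genes and 1 of 3 removal genes, against 43.1% of the 10288 kept genes with a promoter. GGGCGG was in 12 of the 13 sterol synthesis genes, 4 of 4 regulators, 3 of 7 fatty acid genes and 2 of 3 removal genes, against 67.6%. TCACNCCA was in 3 of the 27 members, against 4.5%. These were 1 of 13 sterol synthesis genes (Hmgcs1), 1 of 4 regulators (Srebf2), 0 of 7 fatty acid genes and 1 of 3 removal genes (Apoe). A match describes letters in a window and says nothing of binding.

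The 250 bases before the RefSeq start follow, 5′ to 3′ on the gene's strand, for the 5 sterol synthesis genes called in both PGM and PGF that had a promoter and for Srebf2. Capitals mark CCAAT or its complement ATTGG, and TCACNCCA. The windows are chr13:119690101-119690350 (plus strand) for Hmgcs1, chr8:122443423-122443672 (minus) for Mvd, chr13:8885356-8885605 (plus) for Idi1, chrX:72918271-72918520 (plus) for Nsdhl, chr1:169969206-169969455 (minus) for Hsd17b7 and chr15:82147019-82147268 (plus) for Srebf2. GENCODE places the start of Idi1, Hsd17b7 and Srebf2 farther upstream than RefSeq does.
Hmgcs1: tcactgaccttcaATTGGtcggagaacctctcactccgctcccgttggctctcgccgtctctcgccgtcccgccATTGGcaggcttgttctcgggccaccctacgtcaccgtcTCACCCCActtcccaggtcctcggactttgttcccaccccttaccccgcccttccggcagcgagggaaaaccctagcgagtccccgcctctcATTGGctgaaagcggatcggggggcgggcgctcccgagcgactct
Mvd: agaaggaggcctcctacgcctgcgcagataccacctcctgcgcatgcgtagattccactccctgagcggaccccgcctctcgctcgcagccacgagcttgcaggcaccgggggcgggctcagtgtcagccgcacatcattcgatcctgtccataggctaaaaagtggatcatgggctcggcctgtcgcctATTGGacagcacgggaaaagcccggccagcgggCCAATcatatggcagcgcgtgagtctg
Idi1: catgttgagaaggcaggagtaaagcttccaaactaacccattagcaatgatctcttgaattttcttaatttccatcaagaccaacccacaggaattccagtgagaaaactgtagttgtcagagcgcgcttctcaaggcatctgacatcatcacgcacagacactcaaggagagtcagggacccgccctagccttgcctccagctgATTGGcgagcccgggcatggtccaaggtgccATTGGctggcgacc
Nsdhl: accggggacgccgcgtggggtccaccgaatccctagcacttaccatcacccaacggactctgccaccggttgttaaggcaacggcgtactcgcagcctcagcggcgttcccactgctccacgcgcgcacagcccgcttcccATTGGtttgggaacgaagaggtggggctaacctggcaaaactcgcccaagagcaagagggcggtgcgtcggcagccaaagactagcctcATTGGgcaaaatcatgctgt
Hsd17b7: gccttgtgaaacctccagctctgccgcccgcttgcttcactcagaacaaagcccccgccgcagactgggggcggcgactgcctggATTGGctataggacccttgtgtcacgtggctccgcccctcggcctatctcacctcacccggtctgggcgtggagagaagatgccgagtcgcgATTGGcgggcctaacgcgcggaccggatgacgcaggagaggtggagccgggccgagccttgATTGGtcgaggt
Srebf2: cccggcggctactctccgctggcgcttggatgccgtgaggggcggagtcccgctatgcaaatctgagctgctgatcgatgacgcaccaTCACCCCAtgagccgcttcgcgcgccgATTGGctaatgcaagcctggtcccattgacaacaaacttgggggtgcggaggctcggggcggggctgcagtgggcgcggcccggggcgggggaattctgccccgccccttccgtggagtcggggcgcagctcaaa
Each of the 5 synthesis genes holds 2 or 3 NF-Y boxes in the stretch shown, and Srebf2 holds 1. In Hmgcs1 the SRE core begins 137 bases before the start, between NF-Y boxes at 176 and 45, and in Srebf2 it begins 162 bases before the start with an NF-Y box at 135. Mvd, Idi1, Nsdhl and Hsd17b7 hold no match to these SRE letters in the window.

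Of the 4 regulators, 1 was above Control in PGM and 1 in PGF, none in HM and 2 in HF. Insig1 (chromosome 5, 28071363 to 28078662), the sterol-dependent brake, was at 110.2 RPKM in PGM and 109 in PGF, 93.5 in HM and 102 in HF, against 95.6 in Control. It was the only regulator above Control in PGM and PGF, by 0.20 and 0.19. Srebf2 (chromosome 15, 82147181 to 82205379), which encodes SREBP-2, was at 65.2 RPKM in PGM and 60.8 in PGF, 62.9 in HM and 60.4 in HF, against 70.7 in Control. Control was the highest of the 5, and the differences lay between -0.12 in PGM and -0.23 in HF. Scap was at 67.7 RPKM in PGM and 63.4 in PGF, 63.1 in HM and 71.0 in HF, against 69.4 in Control, with HF the highest. Srebf1, which encodes SREBP-1, differed by -0.14 in PGM and -0.19 in PGF, -0.21 in HM and -0.04 in HF. None of the 4 was called in any group, where 34.7% of all kept genes were, and so few genes say little beside that share. Their medians were -0.08 in PGM and -0.16 in PGF, -0.15 in HM and -0.005 in HF, beside the medians of all kept genes of 0.005, -0.03, -0.03 and 0.02 in the same order. These are transcript levels, and the activation of SREBP proteins by cleavage was not measured.

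Fatty acid synthesis genes lay near the background. Of the 10, 6 were above Control in PGM and 5 in PGF, 3 in HM and 6 in HF, with medians of 0.01, 0.009, -0.04 and 0.01 in that order. Over all kept genes 50.9% were above Control in PGM and 44.2% in PGF, 39.8% in HM and 58.6% in HF. The summed level was 2066 RPKM in PGM and 2061 in PGF, 1973 in HM and 2099 in HF, against 2060.3 in Control. Scd2 alone, at 1037 to 1118 RPKM, made up the largest part of each sum. Elovl1 was the only 1 of the 10 called in any group, beside 34.7% of all kept genes. Elovl1 (chromosome 4, 118428093 to 118432953), which elongates saturated fatty acids to very long chains, was at 40.0 RPKM in PGM and 48.1 in PGF, 35.6 in HM and 30.9 in HF, against 29.3 in Control. The differences from Control were 0.44 in PGM and 0.71 in PGF, 0.28 in HM and 0.08 in HF, and the 1.63-fold of PGF was the largest of the 33 members. PGF exceeded PGM here by more than for any other member.

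The most abundant members of this role had close levels in the 5 groups. Scd2 (chromosome 19, 44293674 to 44306864), the main stearoyl-CoA desaturase of brain, was at 1078 RPKM in PGM and 1082 in PGF, 1037 in HM and 1118 in HF, against 1102 in Control. Fads2, the delta-6 desaturase, was at 180.3 RPKM in PGM and 175 in PGF, 167 in HM and 179 in HF, against 178 in Control. Acly, which supplies cytosolic acetyl-CoA to both pathways, was at 163 RPKM in PGM and 167 in PGF, 168 in HM and 170.3 in HF, against 156 in Control. For each of these the 5 groups lay within 1.09-fold. Fasn, fatty acid synthase, differed by -0.05 in PGM and -0.15 in PGF, -0.18 in HM and -0.05 in HF, and Acaca, acetyl-CoA carboxylase, by between -0.10 and -0.002. Scd1, which lies beside Scd2 and resembles it in sequence, was above Control by 0.13 in PGM, 0.20 in PGF and 0.16 in HF, and at -0.02 in HM. Reads shared by Scd1 and Scd2 could be split in ways that are not given. Elovl5, Elovl6 and Fads1 differed by at most 0.15 in size in every group.

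The 3 genes of sterol removal did not share a direction. Cyp46a1 (chromosome 12, 108334381 to 108362234), the neuronal cholesterol 24-hydroxylase, was at 128 RPKM in PGM and 111 in PGF, 91.8 in HM and 86.4 in HF, against 83.9 in Control. Its difference of 0.61 in PGM, 1.52-fold, was the largest member difference in that group, and in PGF it was 0.40. Abca1 (chromosome 4, 53030787 to 53159895), which loads cholesterol onto lipoprotein particles, was at 38.0 RPKM in PGM and 38.8 in PGF, 40.9 in HM and 44.4 in HF, against 47.1 in Control. It was the only member called lower, at -0.31 in PGM and -0.28 in PGF, so Cyp46a1 and Abca1 ordered the 5 groups in opposite ways. Apoe (chromosome 7, 19696109 to 19699188), secreted mainly by astrocytes, differed by -0.09 in PGM and -0.08 in PGF, -0.15 in HM and -0.04 in HF.

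HM and HF had fewer called members than PGM and PGF, and sterol synthesis medians nearer to 0. In HM 16 of 33 members were above Control, where 39.8% of all kept genes were. In HM Elovl1 alone was called higher (4.09% of all kept genes), a call that ended at 0.25 with the transcript of highest mean, and none was called lower (9.58%). In HF 23 of 33 were above Control, where 58.6% of all kept genes were. In HF Tm7sf2 alone was called higher (3.96%) and none lower (2.04%). The median difference of sterol synthesis genes was 0.04 in HM and 0.06 in HF. In HM the medians of fatty acid synthesis, at -0.04, and of sterol removal, at -0.15, were farther from 0 than in PGM or PGF. With HF in place of Control as the reference, 13 of the 16 sterol synthesis genes were higher in PGM and 14 in PGF, with medians of 0.16 in each, where 45.6% of all kept genes were higher in PGM and 36.5% in PGF. The called genes then numbered 2 in each, Idi1 and Hsd17b7, beside 7.38% of all kept genes in PGM and 5.91% in PGF.

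**Figure D3:**
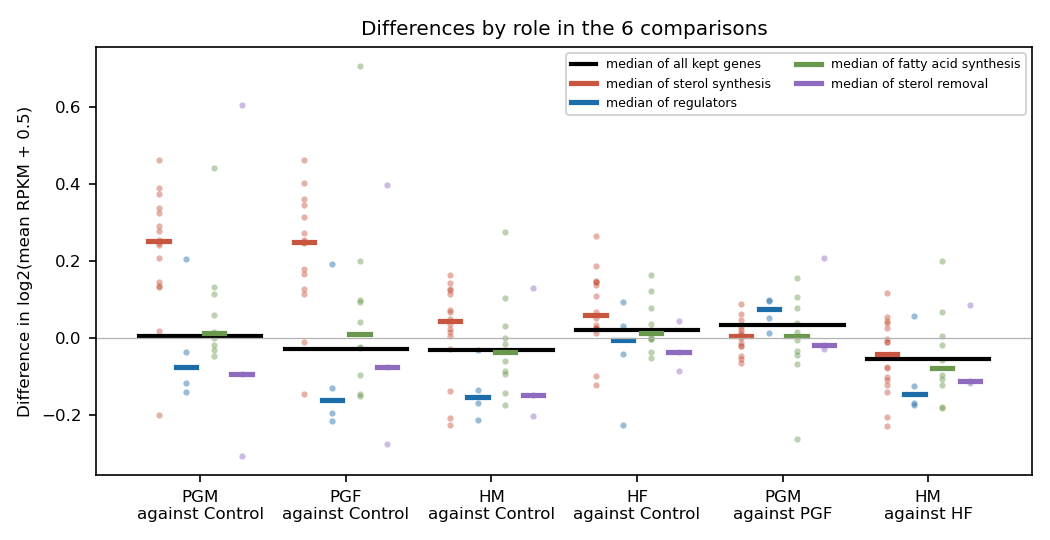
Differences in log2(mean RPKM + 0.5) of single genes (faint points) and the median of each role (coloured bars) in the 6 comparisons, with the median of all kept genes as a black bar. The sterol synthesis medians of 0.25 in PGM and PGF against Control lie above the black bars, while in PGM against PGF and in HM against HF the 4 role medians lie within about 0.1 of them.

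PGM and PGF, set against each other, differed little in these genes. In PGM 19 of 33 members were above PGF, where 62.2% of all kept genes were, and 11 of 33 were with upper quartile scaling, where 49.8% of all kept genes were. None was called higher in PGM (4.6% of all kept genes), and Elovl1 alone was called lower (3.65%), at -0.26, a call that ended with a pseudocount of 1 and with the sum over transcripts. The median of the sterol synthesis genes was 0.005, and Cyp46a1 had the largest positive difference, 0.21. The 4 regulators were all higher in PGM, by 0.01 to 0.10, and the median of all kept genes was itself 0.03.

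HM and HF were set against each other in the same way. In HM 10 of 33 members were above HF, close to the 31% of all kept genes, and 14 of 33 were with upper quartile scaling, where 39.8% were. No member was called higher in HM (2.44%) or lower (8.74%). The lowest differences were those of Tm7sf2 at -0.23 and Mvk at -0.21, and the highest was that of Elovl1 at 0.20. The medians were -0.04 for sterol synthesis, -0.15 for regulators, -0.08 for fatty acid synthesis and -0.11 for sterol removal, against -0.05 over all kept genes.

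The transcripts of a gene mostly had differences of the same sign. Of the members, 20 had more than 1 transcript in the table and 13 had 1. In PGM and PGF against Control, Srebf2 was the only gene whose transcripts differed in sign. Its transcript uc007wyh.1 was at 37.3 RPKM in PGM and 34.4 in PGF, 35.6 in HM and 29.6 in HF, against 31.9 in Control. Its transcript uc007wyi.1 was at 69.4 RPKM in PGM and 64.5 in PGF, 66.6 in HM and 64.8 in HF, against 75.1 in Control. The 4 transcripts of Elovl1 ran in parallel, with PGF differences of 0.69 to 0.72. The exons of Fdps overlap those of Gm43738 over 26.7% of their bases and those of Tm7sf2 overlap those of Vps51 over 12.1%, each on the same strand, so their values are uncertain in part. On the opposite strand, exons of other genes overlap those of Hmgcs1 over 12.1% of their bases, Idi1 over 9.22% and Scap over 13.2%. The use of strand in counting is not given, so these values are uncertain in part too. Transcripts of a gene share reads, so they are not separate measurements.

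Of 20 other genes of these pathways, all were found and kept. In PGM 5 were called higher and 1 lower against Control, in PGF 4 higher and 1 lower, in HF 1 higher, and in HM none. Over all kept genes 10.3% were called higher and 13.3% lower in PGM, 8.25% and 14.7% in PGF, 4.09% and 9.58% in HM, and 3.96% and 2.04% in HF. The medians were 0.07 in PGM and 0.17 in PGF, 0.01 in HM and 0.01 in HF. None reached 1.5-fold in any group. The largest difference was that of Thrsp, a lipogenic gene known to respond to thyroid hormone in liver, at 30.2 RPKM in PGM and 34.1 in PGF, 28.3 in HM and 26.8 in HF, against 23.8 in Control. Msmo1, listed as Sc4mol, and Sc5d, of the late sterol steps, were above Control by 0.26 and 0.16 in PGM and by 0.24 and 0.17 in PGF. Thrsp, Msmo1 and Sc5d were named after their values were seen.

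Markers of other cells and regions moved with these groups. The 10 myelin markers were higher in all 10 members in PGM, PGF, HM and HF against Control. Their summed level was 6546 RPKM in PGM and 7980 in PGF, 5511 in HM and 4192 in HF, against 3976 in Control. The 6 thalamus markers summed to 308 RPKM in PGM and 295 in PGF, 158 in HM and 101.5 in HF, against 101.8 in Control. The 5 neuron markers summed to 2702 RPKM in PGM and 2632 in PGF, 2473 in HM and 2446 in HF, against 2439 in Control. Of these 5, 3 were higher than Control in PGM and 2 in PGF, with medians of 0.02 and -0.02. The 6 astrocyte markers summed to 1578 RPKM in PGM and 1604 in PGF, 1613 in HM and 1676 in HF, against 1764 in Control. In bulk tissue, more or fewer cells of a type and more or less RNA per cell cannot be told apart, and the part of these markers in the differences was not tested.

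Markers of tissue beside the hypothalamus also differed, and their part in the differences was not tested. The 5 pituitary markers summed to 71.6 RPKM in PGM and 1642 in PGF, 89.1 in HM and 38.0 in HF, against 72.2 in Control, with Prl listed at 0 in HF. The 5 choroid plexus markers summed to 121 RPKM in PGM and 463 in PGF, 38.6 in HM and 35.8 in HF, against 23.7 in Control. Ttr was the largest part of each sum, from 7.01 RPKM in Control to 106 in PGM and 440 in PGF. The set did not move as one, since 4 of the 5 were above Control in PGF and 3 in each other group. The median difference was 0.07 for PGM and 0.29 for PGF, 0.24 for HM and 0.16 for HF. Kcnj13 was highest in Control. The 5 meninges markers summed to 55.5 RPKM in PGM and 73.9 in PGF, 71.7 in HM and 111 in HF, against 104 in Control. The 3 erythroid markers found summed to 748 RPKM in PGM and 1009 in PGF, 602 in HM and 1190 in HF, against 1393 in Control. Hbb-b1 made up nearly all of each sum, from 589 RPKM in HM to 1362 in Control. Slc4a1, a low gene, was highest in HF, at 1.74 RPKM against 0.88 in Control. The 5 microglia markers summed to between 161 and 172 RPKM in every group.

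**Figure D4:**
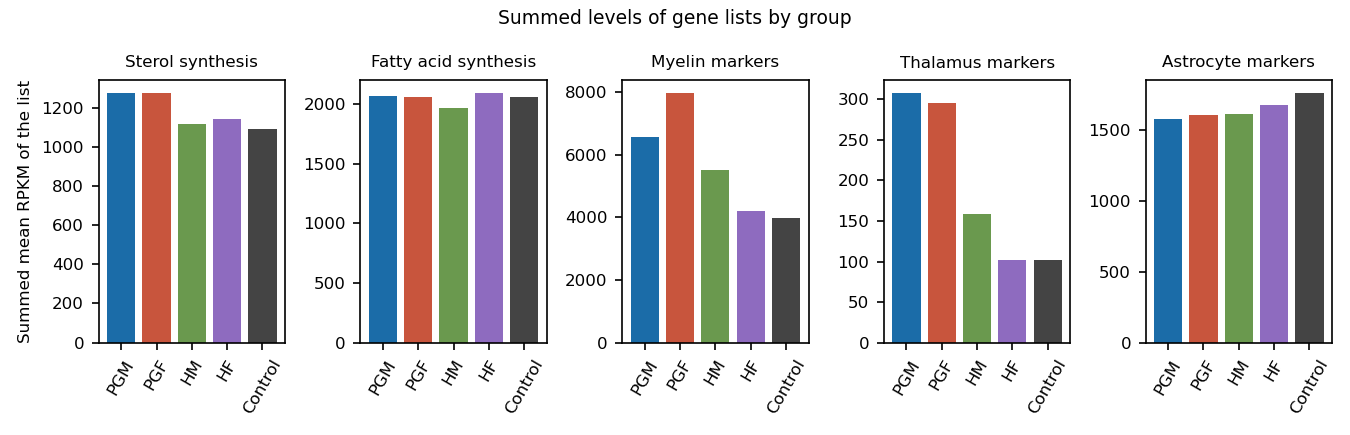
Summed mean RPKM of the 16 sterol synthesis genes, the 10 fatty acid synthesis genes and the markers of myelin, thalamus and astrocytes, as bars from 0 for each of the 5 groups. Sterol synthesis is higher in PGM and PGF by about the same amount, and fatty acid synthesis, a sum in which Scd2 is the largest part, is level. Myelin markers are highest in PGF, and astrocyte markers are highest in Control.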

How the data were processed

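Total RNA of 15 hypothalamus samples in 5 groups was measured by sequencing. FastQC, Novoalign 2.08 and the build mm10 are named, without their roles, per the submitters' processing notes. The deposited values are RPKM per transcript, averaged by the authors over each group, per the file headers, and rounded to 2 decimals. The counting program, its handling of strand and shared reads, and the depth were not given in the sources used here, so no interval is stated.

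A stray header line inside the table (1 row) was dropped. Each gene name was given the median of its transcripts, and 17481 of 24831 names (70.4%) averaged 1 RPKM or more. Differences used a pseudocount of 0.5 RPKM, which understates those of low genes. With 1 mean per group no test was run. Positions are from GENCODE M21 (GRCm38) by symbol, for all 33 members.

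Members, lists, roles and thresholds were chosen with earlier results of these data known (cholesterol synthesis genes were already known to be higher in PGM and PGF), so the lists give no independent support. Values of all groups are printed for members called in any group and for the 3 highest of each role; other members printed in full were chosen after their values were seen. Of the listed markers, Hba-a1 was not found. Alternatives were pseudocounts, filters, scalings, ways to reduce transcripts, a 1.5-fold threshold and HF as reference. Python 3.11.15, numpy 2.4.6, pandas 2.3.3 and matplotlib 3.10.9 were used.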

Additional observations from a re-analysis of the deposited data

How the results depend on the processing

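No paired analysis was possible because the table holds 1 mean per group, and for the same reason no sample could be left out. Under the other settings the members' single differences kept their direction where called, and no median of a role or of all members moved by over 0.1, though with HF as the reference the sterol synthesis median was 0.16 in PGM and in PGF, against 0.25 with Control. Counts of called members depended most on the threshold. At 1.5-fold, 1 member was higher and 0 lower in PGM against Control, and 1 higher and 0 lower in PGF. In HM 0 were higher, in HF 0 were higher, and 0 were lower in PGM against PGF. The shares of all kept genes at 1.5-fold are not printed here, so these counts are not set against a background. With HF as the reference, 4 members were called higher in PGM (7.38% of all kept genes) and 4 in PGF (5.91%), and 0 were called lower in either. In HM 0 were called higher (2.44%), and 10 members were above HF (31%). The shares of all kept genes called lower against HF in PGM and PGF are not printed here. The single call in HF was lost (0) with a pseudocount of 1, upper quartile scaling, quantile normalization, the sum over transcripts and the transcript with the highest mean. That of HM was lost (0) with the transcript of highest mean. That of PGM against PGF was lost (0) with a pseudocount of 1 and with the sum. Of 33 members, 11 were higher in PGM than in PGF under upper quartile scaling and under quantile normalization. Upper quartile scaling left 5 sterol synthesis genes called in PGM and 6 in PGF, with Hmgcs1 and Lss no longer called in PGM. Quantile normalization left 7 called in PGM and 7 in PGF. It ended the calls of Hmgcs1 in both PGM and PGF, and it added Tm7sf2 in PGM and Lss and Ebp in PGF. The shares of all kept genes called under these scalings are not printed here.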
